A study of Mus musculus with 18 samples.

Results

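The comparison described here set 3 arrays of mature CD27-CD11b+ natural killer (NK) cells (called CD11b) against 3 arrays of immature CD27+CD11b- NK cells (called CD27), all from mice without a working Runx3 gene (Runx3 -/-, called KO). It asked which differences between mature and immature NK cells remain when Runx3 is missing. The arrays were chosen by their titles and paired by the replicate number in the title, which gave 6 of the 18 arrays of the series. The same comparison in Runx3 +/+ mice (called WT) used 6 further arrays, and the 3 KO arrays of CD27+CD11b+ double-positive cells (called DP) are given as the stage in between. All mice were of the ICR strain, 6 weeks old, and labelled only as male or female. All had received 2 injections of interleukin-15 complexed with the alpha chain of its receptor (IL15/Ra), 2 days apart, so no group shows NK cells without this stimulus. NK cells were enriched from spleen by negative selection and sorted as NKp46+ cells. The labels name no conditional allele, do not say which part of Runx3 is deleted, and do not say whether animals were pooled. They also do not say whether arrays with the same number came from the same animal, so the spread behind each p-value is one between samples and may be partly technical.

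NK cells are lymphocytes that kill infected or transformed cells and secrete cytokines. In the mouse spleen they pass from a CD27+ stage, which carries the interleukin-7 receptor and secretes chemokines and cytokines, through a double-positive stage to a CD11b+ stage with the receptors of circulating effector cells. The factors T-bet and Zeb2 drive the last steps. Runx3 is a DNA-binding factor of the Runt family, which pairs with the partner Cbfb and can both raise and lower transcription of its targets, and interleukin-15 is the cytokine on which NK cells depend for survival.

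Values are on a log2 scale, where 1 unit is a 2-fold difference. Changes are CD11b minus CD27, tested by limma with the replicate number as a block. P-values were adjusted for all 35399 probe sets (Benjamini-Hochberg), and a change passed where the adjusted p was under 0.05. Folds are followed by their 95% interval. The Runx3 probe set gave 11.46, 11.24 and 11.10 in KO CD11b cells, against 10.94, 11.14 and 10.73 in KO CD27 cells. It thus still gave signal in KO cells, and the 2 KO groups overlapped. Its KO change of 0.33 (adjusted p = 0.0311) lost its call without KO replicate 1 (adjusted p = 0.265), without KO replicate 3 (0.16) and without the block (0.155). Its position with respect to the deletion is not known here, so it checks the genotype only weakly. Runx1, a related factor, changed by 0.16 (adjusted p = 0.421), and Cbfb by 0.05 (adjusted p = 0.723).

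The KO arrays correlated with each other at r = 0.965 to 0.992 over probe sets, and the median SD within groups was 0.14. Several NK genes stood at a like level in both KO groups. Ncr1, which encodes NKp46, averaged 13.61 ± 0.16 in KO CD11b and 13.58 ± 0.11 in KO CD27 cells (SD, n = 3 each), and Klrd1 and Nkg7 lay above 13 on all 6 arrays. Klrb1c, Klrk1 and Eomes did not pass (changes of -0.02, -0.17 and 0.21), while Tbx21 rose by 0.39 (limma, adjusted p = 0.0119). Klrb1c (12.02) and Klrk1 (11.62) were lowest on the CD11b array of KO replicate 3. KO replicate 3 stood apart. Its CD11b array carried genes of other blood cells: the mean level of the 15 neutrophil markers was 9.22 there, against 5.18 and 5.14 on the CD11b arrays of KO replicates 1 and 2 and 5.10 to 5.12 in KO CD27 cells. Likewise the 12 markers of dendritic cells and MHC class II averaged 9.36 on it, against 6.65 and 6.14 on the other KO CD11b arrays and 6.12 to 6.74 in KO CD27 cells. Within pair 3, 13 of the 15 neutrophil markers and 10 of the 12 dendritic cell markers were more than 2-fold higher in CD11b. In pair 1 these counts were 0 and 2, and in pair 2 both were 0. S100a8, a granule gene of neutrophils, had 10.95 on the CD11b array of KO replicate 3, against 5.13 and 5.0 on the others. Lyz2, the lysozyme of myeloid cells, had 12.27 in replicate 3, 7.96 in replicate 1 and 5.02 in replicate 2 of KO CD11b, against 4.67 to 5.20 in KO CD27 cells. The CD27 array of KO replicate 3 also carried some genes of other cells, though not those of neutrophils. Its mast cell and basophil markers averaged 6.20, against 5.22 on both other KO CD27 arrays. Its erythroid and platelet markers averaged 7.07, against 6.06 and 6.19, and its dendritic cell markers 6.74, against 6.20 and 6.13. By limma none of the neutrophil, dendritic cell, macrophage, B cell or mast cell markers passed (2 of 15, 7 of 12, 2 of 16, 3 of 11 and 2 of 9 had an unadjusted p under 0.05). The part of such cells in other results was not tested; values without replicate 3 are given where the call of a described gene depends on it. Both arrays of KO replicate 3 also had Xist, a gene expressed in female cells, at 12.64 (CD11b) and 13.00 (CD27). Those of KO replicates 1 and 2 had 5.13 to 5.62. Sex thus cannot be told apart from the other traits of KO replicate 3. The plot of marker lists by array shows these levels.

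**Figure D1:**
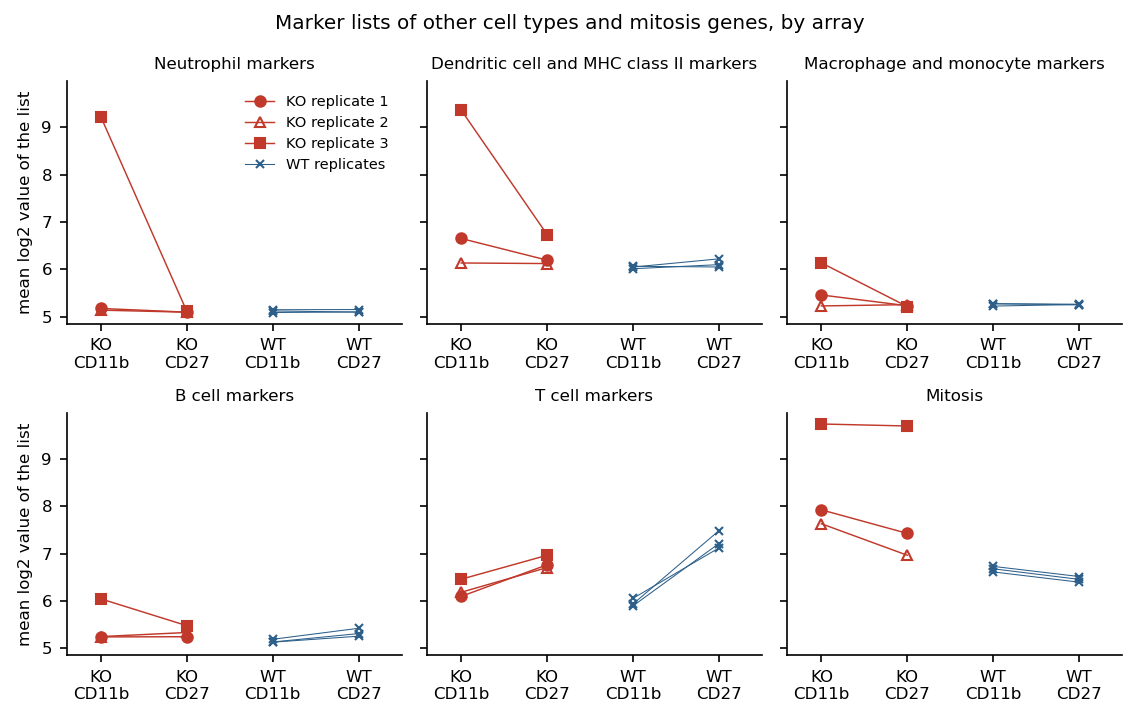
Mean log2 value (y axis) of 5 marker lists of other cell types and of the mitosis list on each CD11b and CD27 array, with KO arrays left of WT arrays (x axis) and lines joining arrays of 1 replicate number. The CD11b array of KO replicate 3 stands at 9.22 for neutrophil markers, and both arrays of that replicate stand near 9.7 for mitosis genes.

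Without Runx3, the mature and immature cells still differed widely. In KO 2185 of 35399 probe sets passed (6.17%), 1292 higher (3.65%) and 893 lower (2.52%) in CD11b, which stand for 902 and 663 genes with a symbol of their own. In WT 3865 passed (10.9%), 2240 higher (6.33%) and 1625 lower (4.59%). Of the KO calls, 131 were at least 2-fold higher and 171 at least 2-fold lower, and 1619 had KO CD11b and KO CD27 arrays that did not overlap, against 5425 (15.3%) among all probe sets, 8.9% higher and 6.42% lower. The changes of all 3 pairs ran one way for 2184 of the KO calls, against 36% of all probe sets. The calls were made on these same pairs and arrays, so this agreement and the lack of overlap are no separate evidence. With cyclic loess normalization 2277 passed, 1091 of them higher and 1186 lower, and without KO replicate 2 1588 passed, 744 of them higher and 844 lower, so the excess of higher calls depended on the scaling and on 1 replicate. The count was 647 without KO replicate 1, 1189 without KO replicate 3 and 734 without the block. It was 1264 in a fit of the 9 KO arrays alone and 63 in a fit of the 6 KO arrays compared. The main fit shares 1 spread of each probe set between KO and WT. The pair changes of KO varied more (median SD 0.158, against 0.128 in WT), so sharing can make KO p-values too small and KO intervals too narrow. Of the 78 named genes that passed, 65 did so in the fit of the 9 KO arrays.

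Most of the probe sets with large WT differences also passed in KO. Of the 217 probe sets at least 2-fold higher in WT CD11b cells, 161 (74.2%) passed in KO in the same direction, and of the 279 at least 2-fold lower, 182 (65.2%) did. Probe sets of 1 gene count separately in these shares and in those of all sizes, so they are not shares of genes. Hmcn1 holds 77 probe sets, of which 72 rose in WT and 70 in KO. Nlrc5 holds 19, which all fell in WT and of which none passed in KO. How many of these were at least 2-fold is not given here. Counting all sizes, 790 probe sets passed upward in both genotypes, which is 61.1% of the KO calls and 35.3% of the WT calls; downward 587 did, 65.7% of the KO calls and 36.1% of the WT calls. Probe sets called higher in WT had a median change of 0.23 in KO and 0.42 in WT, and those called lower had -0.26 in KO and -0.53 in WT. Probe sets called higher in KO had, the other way round, a median of 0.46 in KO and 0.38 in WT, and those called lower -0.55 in KO and -0.46 in WT. Each set had the larger median in the genotype it was picked in, so these medians cannot by themselves measure a general difference in size. The sets picked in WT differed more between genotypes than those picked in KO. Whether KO changes were smaller in general was not tested. Of the 1450 and 1036 WT calls, higher and lower, that did not pass in KO, 33 and 38 also passed the test of the difference between the KO and WT changes. Of the 500 and 306 KO calls that did not pass in WT, 8 and 2 did. The KO and WT changes share no arrays but share the estimate of the spread of each probe set. Over all 35399 probe sets the changes correlated at r = 0.614, a description over genes that are not independent.

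**Figure D2:**
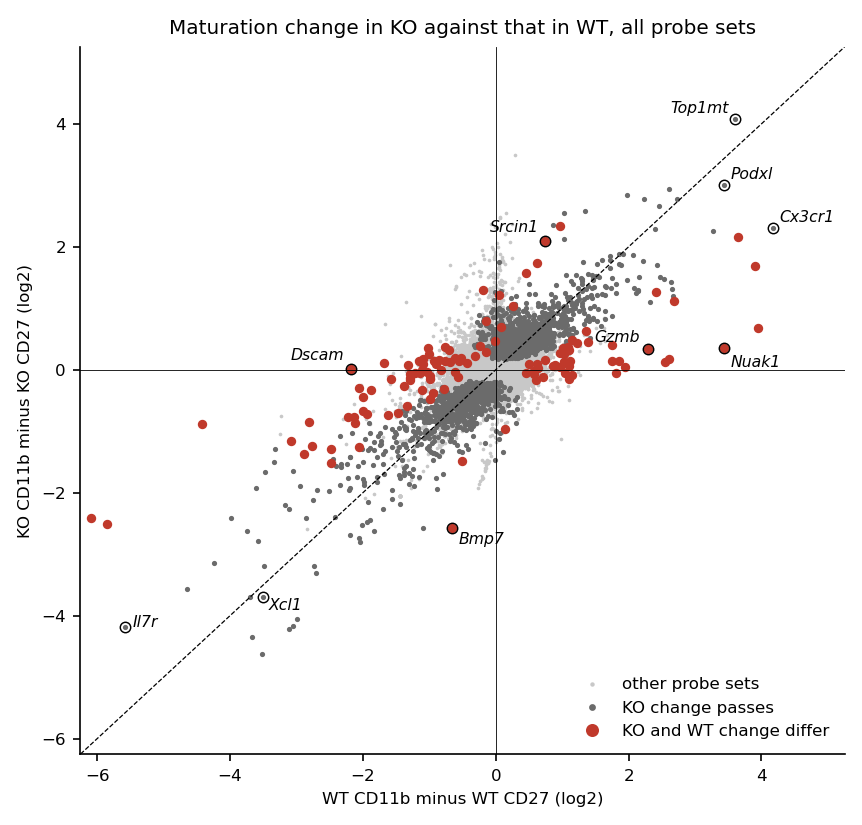
KO change (y axis) against WT change (x axis) of each probe set, both CD11b minus CD27 on the log2 scale; dark grey points pass in KO, red points have changes that differ between genotypes, and the dashed line marks equal changes. Top1mt and Il7r lie far from 0 in both genotypes, while Nuak1 (KO 0.35, WT 3.43) and Dscam (KO 0.01, WT -2.18) lie near the zero line of KO.

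Promoters are shown for 3 genes that stand for these patterns: Xcl1, which fell in both genotypes, and Gzmb and Nuak1, which rose in WT and did not pass in KO. Runt family factors bind the core letters TGTGGT or TGCGGT, and capitals mark these letters or their reverse complements, ACCACA and ACCGCA. Each sequence is the 250 bases before the gene's start, on the minus strand, from RefSeq on GRCm38.p6. Xcl1 lies at chr1:164935523-164935772, Gzmb at chr14:56262335-56262584 and Nuak1 at chr10:84440669-84440918.
Xcl1: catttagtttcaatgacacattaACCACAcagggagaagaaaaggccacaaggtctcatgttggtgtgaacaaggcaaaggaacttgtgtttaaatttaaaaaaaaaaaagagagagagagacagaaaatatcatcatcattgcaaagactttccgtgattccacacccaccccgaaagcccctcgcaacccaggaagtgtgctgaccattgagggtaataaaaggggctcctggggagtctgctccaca
Gzmb: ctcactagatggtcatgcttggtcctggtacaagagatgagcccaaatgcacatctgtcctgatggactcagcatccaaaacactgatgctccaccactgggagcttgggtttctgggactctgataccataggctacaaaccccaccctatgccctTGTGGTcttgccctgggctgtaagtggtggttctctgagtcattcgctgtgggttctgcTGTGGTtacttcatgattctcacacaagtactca
Nuak1: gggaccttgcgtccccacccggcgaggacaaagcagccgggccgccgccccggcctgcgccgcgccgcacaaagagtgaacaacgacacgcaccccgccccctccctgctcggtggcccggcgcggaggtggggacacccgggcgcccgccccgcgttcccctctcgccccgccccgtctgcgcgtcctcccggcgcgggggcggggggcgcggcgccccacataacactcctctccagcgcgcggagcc
The Xcl1 stretch holds 1 match, that of Gzmb holds 2 and that of Nuak1 holds 0. On either strand, 118 of 739 genes higher in KO CD11b cells (16%) and 115 of 507 lower ones (22.7%) hold a match, against 2730 of all 15614 genes with a promoter entry (17.5%). Among genes whose change differed between genotypes, 21 of 70 (30%) hold one. A match is a description of the letters and not a binding site, and these shares were not tested.

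The markers by which the subsets were sorted changed as the gates would make them, and they are no findings. Cd27 fell 4.42-fold (3.44 to 5.67, adjusted p = 6.5e-05) and Itgam, which encodes CD11b, rose 6.33-fold (4.32 to 9.27, adjusted p = 0.000222) in KO. Itgam had means of 9.50, 11.80 and 12.16 in KO CD27, DP and CD11b cells, so that the DP cells stood close to the mature ones. These arrays measure RNA of sorted populations, in which fewer cells of a type and less RNA per cell cannot be told apart.

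Of 23 measured markers of mature NK cells, 14 rose and 1 fell in KO, against 3.65% and 2.52% of all probe sets. The median change was 0.40, against 0.02 over all probe sets. The list includes Itgam, by which the cells were sorted. Its members, like those of the lists below, were chosen with earlier results of these data known, so its counts are a description. In WT 19 rose and 2 fell, with a median of 1.11. The KO count of rises was 7 without KO replicate 1, 8 without KO replicate 3 and 8 without the block. Klrg1, an inhibitory lectin receptor of terminal NK cells, had 12.78, 13.34 and 12.82 in KO CD11b cells, against 10.38, 12.21 and 10.99 in KO CD27 cells. The groups did not overlap, although KO CD27 replicate 2 came near them, and Klrg1 rose 3.44-fold (2.54 to 4.67, adjusted p = 0.000647). Cx3cr1, the fractalkine receptor of circulating effector cells, had 12, 11.89 and 11.84 in KO CD11b cells, against 9.13, 10.09 and 9.61 in KO CD27 cells. All KO CD11b arrays lay well above the KO CD27 arrays, and the rise was 4.93-fold (2.72 to 8.95, adjusted p = 0.00641), with an adjusted p of 0.101 without KO replicate 1. S1pr5, the sphingosine phosphate receptor that lets NK cells leave tissues, rose 2.00-fold (1.56 to 2.55, adjusted p = 0.00474; 0.059 without KO replicate 1). Cma1, a mast cell chymase also made by NK cells, rose by 1.44 on the log2 scale (adjusted p = 0.00322). The member that fell was S1pr1, a related egress receptor, at -1.12 (adjusted p = 0.015), with overlapping KO groups and a call lost without KO replicate 1 (0.125), KO replicate 3 (0.121) or the block (0.479). Its WT change was -1.26. Gzmb, S100a4 and S100a6, which rose in WT and did not pass in KO, are described with the differences between genotypes.

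Of 18 markers of immature NK cells 15 fell and 0 rose in KO, with a median of -1.61, and 16 fell in WT with a median of -2.12. Among all probe sets 2.52% fell in KO. The list includes Cd27, by which the cells were sorted, and its members were chosen with earlier results of these data known. The KO count was 11 without KO replicate 1 and 14 without KO replicate 3. Il7r, the receptor chain for interleukin-7, had 6.92, 7.11 and 8.74 in KO CD11b cells, against 11.66, 11.88 and 11.81 in KO CD27 cells. The groups lay far apart, with KO replicate 3 the highest of the mature arrays, and Il7r fell 18.2-fold (10.0 to 33.1, adjusted p = 0.000212), the largest fall among the genes named by the rule. Xcl1, the chemokine lymphotactin, whose promoter is given above, had 7.45, 6.70 and 6.48 in KO CD11b cells, against 10.71, 10.32 and 10.71 in KO CD27 cells. All 3 pairs fell by more than 3 units, and the fall was 13.0-fold (10.1 to 16.8, adjusted p = 3.58e-06). Emb, the cell surface glycoprotein embigin, had 5.66, 6.65 and 9.57 in KO CD11b cells, against 10.21, 10.87 and 11.51 in KO CD27 cells. Its mature arrays spread widely, with replicate 3 close to the immature ones, and its fall was 11.8-fold (5.34 to 26.3, adjusted p = 0.00278). Ltb, which encodes lymphotoxin beta, fell 6.13-fold (4.91 to 7.64, adjusted p = 1.01e-05). The receptor tyrosine kinase Kit fell 3.15-fold (1.79 to 5.56, adjusted p = 0.0252), but its KO groups overlapped and its adjusted p was 0.153 without KO replicate 1, 0.184 without KO replicate 3 and 0.222 without the block. Cd28, a costimulatory receptor best known in T cells, fell 2.96-fold (adjusted p = 6.19e-06).

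**Figure D3:**
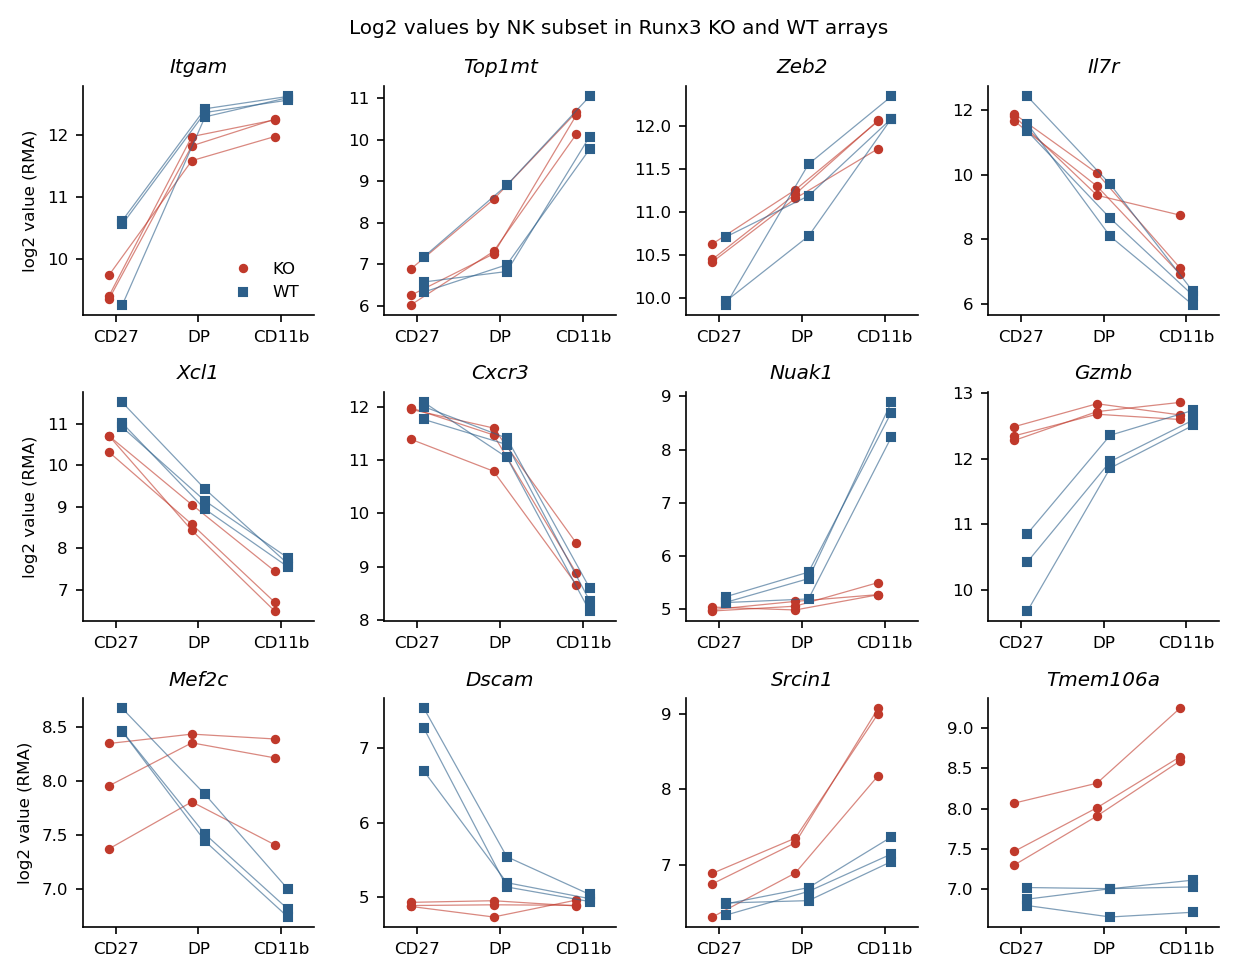
Log2 values (y axis, with its own range in each panel) of 12 genes in CD27, DP and CD11b cells (x axis); red circles are KO arrays, blue squares WT arrays, and lines join arrays of 1 replicate number. Itgam, Top1mt, Zeb2, Il7r, Xcl1 and Cxcr3 run the same way in both genotypes, Nuak1, Gzmb, Mef2c and Dscam did not pass in KO, and Srcin1 and Tmem106a climb more in KO.

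Among the factors known from terminal maturation, Zeb2 had 12.07, 12.06 and 11.74 in KO CD11b cells, against 10.45, 10.63 and 10.42 in KO CD27 cells. The groups were separate and the pairs alike, with a 2.74-fold rise (2.05 to 3.66, adjusted p = 0.00151). Irf8, an interferon regulatory factor, rose 2.50-fold (2.2 to 2.85, adjusted p = 2.24e-05). Tbx21, which encodes T-bet, rose 1.31-fold (1.17 to 1.47, adjusted p = 0.0119; 0.0725 without KO replicate 2, 0.0995 without KO replicate 3 and 0.0534 without the block). Prdm1, which encodes Blimp-1, changed by 0.46 (adjusted p = 0.0469), a call lost without each of the 3 KO replicates (adjusted p of 0.173 to 0.224) and without the block (0.21). Eomes, the second T-box factor of NK cells, changed by 0.21 (adjusted p = 0.117).

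Of the 35 measured transcription factors 7 rose and 7 fell in KO, against 3.65% and 2.52% of all probe sets. The median was 0.08, and all 7 that rose also rose in WT. Myb, a factor of progenitors, fell 2.48-fold (1.9 to 3.23, adjusted p = 0.0016), but its KO groups overlapped and its adjusted p was 0.2 without the block. Ikzf2 (Helios) fell 2.12-fold (1.65 to 2.72, adjusted p = 0.00357). Zeb1, the relative of Zeb2, fell at -0.99 in KO (adjusted p = 0.00021) and at -0.92 in WT. Ahr, the aryl hydrocarbon receptor, fell at -0.97 (adjusted p = 0.00445; 0.0642 without KO replicate 1). Without KO replicate 3 the counts were 2 higher and 6 lower, without KO replicates 1 and 2 they were 3 and 3 and 3 and 4, and without the block 2 and 4.

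Of 25 cytotoxic effectors 6 rose and 2 fell in KO, against 3.65% and 2.52% of all probe sets, with a median of 0.11. In WT 10 rose and 4 fell, against 6.33% and 4.59%. Prf1, the pore-forming protein perforin, had 13.21, 13.28 and 12.96 in KO CD11b cells, against 12.78, 12.82 and 12.21 in KO CD27 cells. Its groups did not overlap, and it rose 1.46-fold (1.28 to 1.66, adjusted p = 0.00403; 0.0761 without the block). Stx11, a syntaxin of granule release, rose 1.64-fold (1.46 to 1.84, adjusted p = 0.000438). Fasl, the Fas ligand, rose by 0.35 (adjusted p = 0.00427; 0.272 without the block). Ctsc, the protease that activates granzymes, rose by 0.46 (adjusted p = 0.0112; 0.0634 without KO replicate 1 and 0.0709 without KO replicate 3). The 2 that fell were Tnfsf10, the death ligand TRAIL of immature NK cells, 4.81-fold (3.84 to 6.04, adjusted p = 2.39e-05), and Lyst, a regulator of lysosome trafficking, 2.58-fold (2.21 to 3.00, adjusted p = 5.14e-05). Both also fell in WT. The rises numbered 3 without KO replicate 1 and 3 without the block.

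Receptors for migration included several large falls. Cxcr3, a receptor for inflammatory chemokines, had 8.88, 9.44 and 8.66 in KO CD11b cells, against 11.98, 11.95 and 11.39 in KO CD27 cells. The KO groups were about 2 units apart at their closest, and Cxcr3 fell 6.87-fold (5.64 to 8.36, adjusted p = 3.58e-06). Cxcr6, a receptor of liver-resident lymphocytes, fell 9.14-fold (6.34 to 13.2, adjusted p = 5.55e-05), and Gpr183, a receptor for oxysterols, fell 8.79-fold (5.92 to 13.0, adjusted p = 9.58e-05). Of the 21 measured genes of this list 2 rose and 7 fell in KO, against 3.65% and 2.52% of all probe sets, with a median of -0.07. All 9 also passed in WT in the same direction. Among them Ccr2, a receptor for monocyte chemokines, fell at -0.93 (adjusted p = 0.00527). The 2 rises, of Cx3cr1 and S1pr5, were 0 without KO replicate 1.

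Among 25 cytokine receptors 3 rose and 9 fell in KO, against 3.65% and 2.52% of all probe sets. All 12 passed in WT in the same direction. Il2ra, the alpha chain of the interleukin-2 receptor, had 6.39, 6.22 and 6.17 in KO CD11b cells, against 9.09, 8.20 and 9.91 in KO CD27 cells. The mature arrays lay close together while the immature ones spread, and the fall was 6.99-fold (4.72 to 10.3, adjusted p = 0.000194). Il18r1, a chain of the interleukin-18 receptor, fell 2.80-fold (2.41 to 3.26, adjusted p = 2.54e-05). Il12rb2, a chain of the interleukin-12 receptor, rose by 0.79 (adjusted p = 0.00143). Tgfbr3, a receptor for transforming growth factor beta, rose by 0.83 (adjusted p = 0.000647), the same way in every pair but with overlapping KO groups and an adjusted p of 0.207 without the block. The count of falls was 3 without KO replicate 1, 4 without KO replicate 3 and 3 without the block.

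Of 16 cytokines and chemokines 2 rose and 4 fell in KO, against 3.65% and 2.52% of all probe sets. The rises were those of the chemokines Ccl3, by 0.26 (adjusted p = 0.0317), and Ccl4, by 0.31 (adjusted p = 0.00629), and numbered 0 without KO replicate 1, KO replicate 3 or the block and 1 without KO replicate 2. Besides Xcl1 and Ltb, the falls were those of Tnfsf14 (LIGHT), 3.02-fold (2.18 to 4.19, adjusted p = 0.00173), and Tnf, 2.11-fold (1.44 to 3.09, adjusted p = 0.0296), and the call of Tnf was lost without each KO replicate (adjusted p of 0.109 to 0.145). Ifng, which encodes interferon gamma, changed by 0.03 in KO and 0.06 in WT. Socs2, a feedback inhibitor of cytokine signalling, fell 5.43-fold (4.06 to 7.25, adjusted p = 7.26e-05).

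Of 33 other NK receptors 2 rose and 10 fell in KO, against 3.65% and 2.52% of all probe sets. All 10 that fell also fell in WT. Slamf6 fell 4.62-fold (3.53 to 6.04, adjusted p = 7.8e-05), Cd160 3.86-fold (2.79 to 5.35, adjusted p = 0.000571) and Cd200r1 3.86-fold (2.78 to 5.36, adjusted p = 0.000603). Cd226, an activating receptor, and Tigit and Cd96, which share its ligands, fell at -1.03, -0.78 and -0.93 (adjusted p of 0.00426, 0.00985 and 0.000685). The calls of Cd226 and Tigit were lost without KO replicate 1 (0.0702 and 0.129) and without KO replicate 3 (0.0507 and 0.0866). The falls numbered 6 without KO replicate 1, and the 2 rises 0 without KO replicate 1, KO replicate 3 or the block. Lilrb4a, an inhibitory receptor, fell 2.90-fold (1.72 to 4.89, adjusted p = 0.0246; 0.194 without KO replicate 1 and 0.116 without KO replicate 2). Of 6 measured Ly49 receptors none passed in KO by limma (3 had an unadjusted p under 0.05), and KO changes ran from -0.09 (Klra8) to 0.77 (Klra17, adjusted p = 0.117). Some Ly49 genes are near-identical copies, so their probe sets may share signal.

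Of 21 integrin and adhesion genes 6 rose and 2 fell in KO, against 3.65% and 2.52% of all probe sets. In WT 11 rose and 4 fell, against 6.33% and 4.59%. Apart from Itgam, Spn (CD43, a sialylated surface protein of mature NK cells) rose 1.56-fold (1.31 to 1.85, adjusted p = 0.00789; 0.107 without KO replicate 1 and 0.0622 without KO replicate 3). Itgb3 fell 1.80-fold (1.29 to 2.5, adjusted p = 0.0444), a call lost without each KO replicate (adjusted p of 0.102 to 0.239). Itgad fell 1.69-fold (1.38 to 2.07, adjusted p = 0.0074), but its KO groups overlapped and its adjusted p was 0.1 without KO replicate 1, 0.0763 without KO replicate 3 and 0.466 without the block. The rises numbered 1 without KO replicate 1, 1 without KO replicate 3 and 2 without the block.

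Markers shared with type 1 innate lymphoid cells fell nearly throughout: 13 of 14 fell in KO, with a median of -1.95, and 11 fell in WT, with a median of -2.34. Among all probe sets 2.52% fell in KO. These members too were chosen with earlier results of these data known. The KO falls numbered 13 without KO replicate 3 and 9 without KO replicate 1. Of these genes, Il7r, Cxcr3, Thy1, Tnfsf10 and Inpp4b also stand among the immature NK markers, so the lists are not separate evidence. Of the others, Tmem176a fell by 1.95 on the log2 scale (adjusted p = 0.000688) and Rora, a nuclear receptor, by 0.95 (adjusted p = 0.0143; 0.135, 0.0828 and 0.0741 without KO replicates 1, 2 and 3). Itga1, the integrin chain CD49a that defines these cells, changed by -1.23 in KO and -0.85 in WT and passed in neither.

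The largest KO rises came from genes less known in NK cells. Top1mt, the mitochondrial topoisomerase, had 10.59, 10.13 and 10.66 in KO CD11b cells, against 6.25, 6.01 and 6.88 in KO CD27 cells. It rose in every pair by about 4 units, 16.9-fold in all (11.4 to 25.2, adjusted p = 2.24e-05), and its means of 6.38, 7.70 and 10.46 in KO CD27, DP and CD11b cells put most of the rise after the DP stage. Podxl, the sialomucin podocalyxin, had 8.56, 8.26 and 8.73 in KO CD11b cells, against 5.51, 5.34 and 5.70 in KO CD27 cells. Its pairs were nearly equal (3.05, 2.92 and 3.03), and it rose 8.0-fold (6.4 to 10.0, adjusted p = 5.04e-06), with a KO DP mean of 5.80. Gprc5a, an orphan receptor, rose 7.68-fold (5.89 to 10.0, adjusted p = 1.41e-05), and Ccl9, a chemokine for myeloid cells, rose 7.18-fold (5.62 to 9.16, adjusted p = 1.01e-05). For Hmcn1, which encodes a large extracellular matrix protein, 70 of its 77 probe sets rose in KO and 72 in WT. Fam81a rose 4.79-fold (3.12 to 7.38, adjusted p = 0.00113; 0.104 without the block), with 9.09 on the CD11b array of KO replicate 3, against 6.41 and 6.11 on those of KO replicates 1 and 2.

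The other large rises were those of the neurotrophic factor receptor Gfra2 (5.85-fold), the imprinted gene Mest (4.35-fold) and the arsenic methyltransferase As3mt (3.67-fold). Large falls outside the lists were those of the lipid flippase Atp8a2 (6.14-fold; adjusted p = 0.0517 without KO replicate 1), the sialyltransferase St8sia6 (5.95-fold), Kbtbd11 (5.33-fold) and the nuclear protein gene Aff3 (5.24-fold). Cd3d and Cd3g, CD3 chains known from T cells, fell 5.30-fold (adjusted p = 0.00108) and 3.40-fold (adjusted p = 0.000897) in KO. The 12 T cell markers as a list had mean levels of 6.10 to 6.46 in KO CD11b and 6.71 to 6.96 in KO CD27 cells. Of them 3 fell, against 2.52% of all probe sets, and their part in these results was not tested. Of the 78 named genes that passed, 52 passed with each KO replicate left out in turn and 51 without the block. Their calls in the fit of the 6 KO arrays compared, the one with the fewest KO calls among the full sets of replicates, are not given here.

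**Figure D4:**
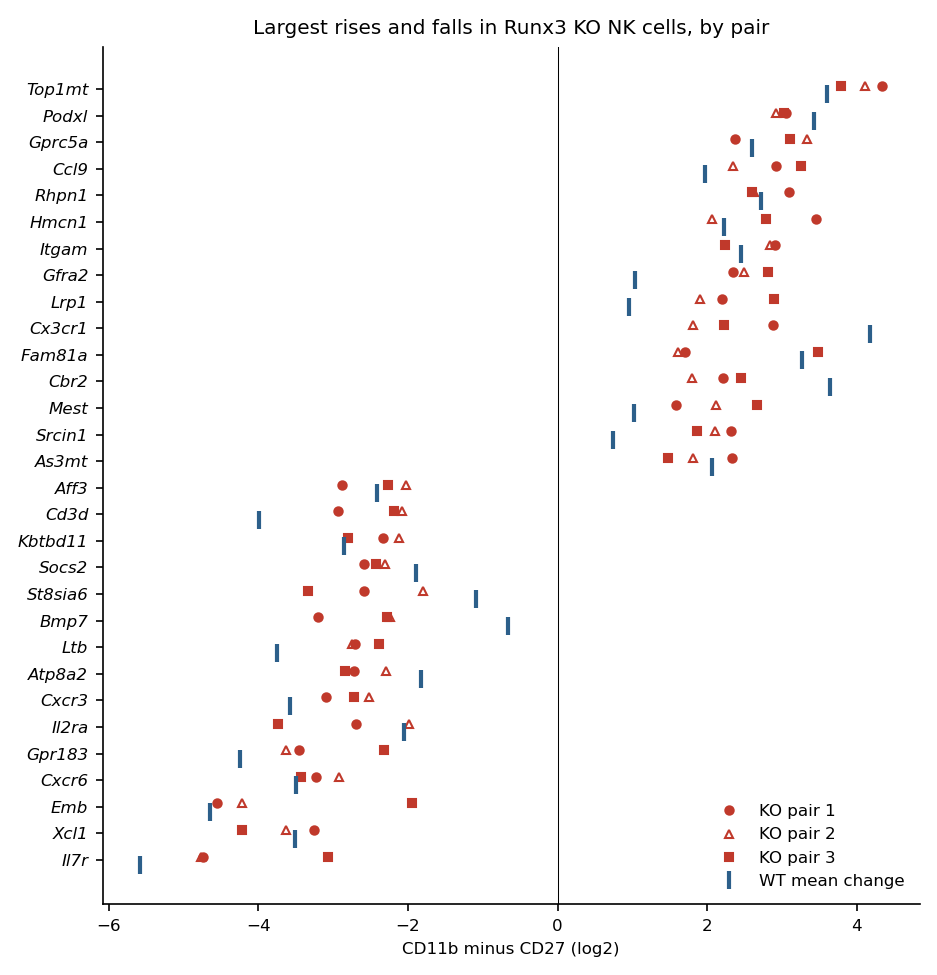
KO change of each pair (red symbols, CD11b minus CD27 of 1 replicate number, log2 on the x axis) for the 15 largest rises and 15 largest falls, beside the mean WT change (blue bars). Every pair of every gene lies on 1 side of 0 because the rule took only such genes. Pair 3 is the smallest fall for Il7r, Emb, Gpr183 and Ltb.

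Cell cycle genes showed how unlike the replicates were. Of 40 mitosis genes 12 rose and 0 fell in KO, against 3.65% and 2.52% of all probe sets, with a median of 0.40. In WT 6 rose, against 6.33% of all probe sets, with a median of 0.20. The list's mean level was 7.92, 7.63 and 9.73 in KO CD11b cells, against 7.43, 6.97 and 9.69 in KO CD27 cells and 6.40 to 6.73 on the WT arrays. KO replicate 3 was far above the others in both subsets, while the median change was 0.51, 0.69 and 0.03 in pairs 1, 2 and 3. The list had 22 rises without KO replicate 3, 2 without KO replicate 1, 4 without KO replicate 2 and 0 without the block. Foxm1, a factor that drives mitotic genes, rose 1.74-fold (1.44 to 2.1, adjusted p = 0.00401; 0.738 without the block), and its KO groups overlapped. Of 37 DNA replication genes 3 rose and 1 fell (1 and 1 without KO replicate 3, 1 and 0 without KO replicate 1, 0 and 0 without the block). The shares of all probe sets were 3.65% and 2.52%, and so few calls are no finding about the list. Mki67, which encodes Ki-67, had 11.04, 10.82 and 12.38 in KO CD11b cells, against 10.74, 10.32 and 12.33 in KO CD27 cells, and did not pass (adjusted p = 0.145).

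Genes of growth and metabolism moved little. Myc fell 1.66-fold by limma (1.36 to 2.02, adjusted p = 0.00856). Its adjusted p was 0.0939 without KO replicate 1, 0.0605 without KO replicate 3 and 0.417 without the block. Of 22 genes of its list 1 rose and 2 fell (0 and 0 without KO replicate 1, KO replicate 3 or the block). The shares of all probe sets were 3.65% and 2.52%, so these few calls too are no finding about the list. Of 14 glycolysis genes 3 rose in KO, against 3.65% of all probe sets. These rises numbered 0 without KO replicate 1 or 2, 2 without KO replicate 3 and 1 without the block. Pfkm, a phosphofructokinase, rose 1.71-fold by limma (1.38 to 2.11, adjusted p = 0.00917). Its adjusted p was 0.0785 without KO replicate 1, 0.0596 without KO replicate 2 and 0.101 without the block. Of 20 type I interferon response genes 6 fell and 1 rose in KO, against 2.52% and 3.65% of all probe sets. The median was -0.28, and the 7 also passed in WT in the same direction. Oas3 fell 2.64-fold (2.05 to 3.4, adjusted p = 0.000878) and Rtp4 2.65-fold (2.03 to 3.47, adjusted p = 0.00115). The falls of this list numbered 4 without KO replicate 3 and 2 without KO replicate 1 or the block.

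**Figure D5:**
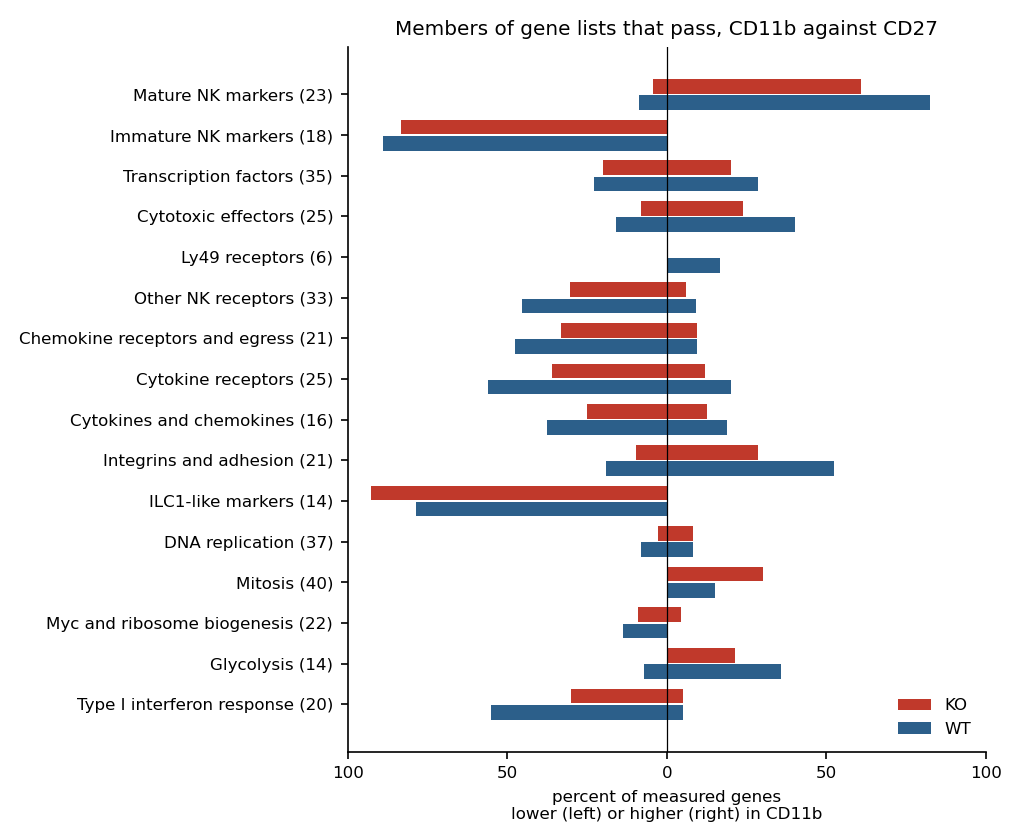
Percent of the measured genes of each list (number in brackets) that were lower (left of 0) or higher (right of 0) in CD11b than in CD27 cells at an adjusted p under 0.05, with KO bars above WT bars. The bars of immature NK and type 1 innate lymphoid cell markers reach far left in both genotypes, and those of mature NK markers are shorter in KO (14 of 23 higher) than in WT (19 of 23 higher).

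The test of the KO change minus the WT change passed for 117 of 35399 probe sets (0.331%), 71 with a higher KO change (0.201%) and 46 with a lower one (0.13%). This count was 13 without the block, 7 without KO replicate 1, 21 without KO replicate 3 and 4 in a fit of the 12 CD27 and CD11b arrays alone. In 33 probe sets the gene rose in WT and did not pass in KO, in 38 it fell in WT and did not pass in KO, and in 30 it moved the same way in both but less in KO. In 8 it rose in KO and did not pass in WT, in 2 it fell in KO and did not pass in WT, in 5 it moved the same way but more in KO, and Cyria passed in opposite directions. Nlrc5, a regulator of MHC class I genes, holds 14 of the 117, and all 19 of its probe sets fell in WT while none passed in KO by limma (3 had an unadjusted p under 0.05).

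Among genes that rose in WT and did not pass in KO, Nuak1, an AMPK-related kinase, had the smallest p. It had 5.28, 5.50 and 5.28 in KO CD11b cells, against 5.04, 4.97 and 5.0 in KO CD27 cells, whereas WT cells had 8.69, 8.23 and 8.88 in CD11b, against 5.24, 5.13 and 5.13 in CD27. WT CD11b cells stood alone at a high level. The KO change was 0.35 and the WT change 3.43, a difference of -3.09 (-3.43 to -2.74, adjusted p = 4.49e-05) that also passed without the block and with each replicate left out. Gzmb, which encodes the death protease granzyme B, followed another course. It had 12.67, 12.86 and 12.60 in KO CD11b cells, against 12.49, 12.28 and 12.35 in KO CD27 cells, whereas WT cells had 12.74, 12.51 and 12.59 in CD11b, against 10.86, 9.68 and 10.43 in CD27. Here KO CD27 cells already stood near the mature level, and the KO change of 0.33 and WT change of 2.29 differed by -1.96 (-2.42 to -1.49, adjusted p = 0.00692; 0.0832 without KO replicate 1 and 0.056 without KO replicate 3). Scel (KO 0.15, WT 1.85) and Avil (KO 0.14, WT 1.75), which encode sciellin and the actin-binding protein advillin, followed Nuak1 in the order of p, at adjusted p of 0.00146 (0.0689 without the block) and 0.00124.

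Other genes of this kind, chosen after their values were seen, showed both courses. Serpinb9b, of the granzyme inhibitor family, had means of 13.12 in KO CD11b and 12.98 in KO CD27 cells, against 12.47 in WT CD11b and 9.92 in WT CD27 cells (difference adjusted p = 0.00814). The calcium-binding S100a4 (KO -0.15, WT 1.11) and S100a6 (KO -0.09, WT 1.15) and granzyme A, Gzma (KO 0.09, WT 0.63), also differed, at adjusted p of 0.0219, 0.0498 and 0.0103, with KO CD27 means of 9.91, 9.98 and 13.36, against 8.65, 8.98 and 12.93 in WT CD27 cells. Itgb4, an integrin chain, averaged 5.57 in KO CD11b and 5.40 in KO CD27 cells, against 7.97 in WT CD11b and 5.36 in WT CD27 cells (difference adjusted p = 0.019). None of the differences of Serpinb9b, S100a4, S100a6, Gzma and Itgb4 passed without KO replicate 1 (adjusted p of 0.101 to 0.291), KO replicate 2 (0.0534 to 0.128) or KO replicate 3 (0.056 to 0.148), and only that of Itgb4 passed without the block (0.0426). Anxa8, an annexin, averaged 6.03 in KO CD11b and 5.34 in KO CD27 cells and did not pass in KO (adjusted p = 0.222), against 9.33 in WT CD11b and 5.38 in WT CD27 cells (difference adjusted p = 0.0104; 0.0652 to 0.0832 with 1 KO replicate left out).

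Among genes that fell in WT and did not pass in KO, Mef2c, a MADS-box factor, had 7.41, 8.21 and 8.39 in KO CD11b cells, against 7.37, 7.95 and 8.35 in KO CD27 cells, whereas WT cells had 6.81, 6.74 and 7.0 in CD11b, against 8.46, 8.46 and 8.67 in CD27. The KO groups overlapped and the WT groups did not. The difference was 1.79 (1.54 to 2.04, adjusted p = 0.000209; 0.197 without the block). Dscam, a cell adhesion molecule of the immunoglobulin family, stood between 4.87 and 4.96 on all 6 KO arrays, against 4.94 to 5.04 in WT CD11b and 6.69 to 7.54 in WT CD27 cells. KO cells thus lacked the high immature level, and the changes differed by 2.20 (1.79 to 2.60, adjusted p = 0.00133). Cxcr4, the receptor for the bone marrow chemokine Cxcl12, changed by -0.44 in KO and -2.00 in WT (difference adjusted p = 0.00814; chosen after its values were seen). That difference did not pass with any KO replicate left out (0.0546 to 0.0615) or without the block (0.793).

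Genes that moved the same way in both genotypes but less in KO, again chosen after their values were seen, lay between these courses. Gpx8, a peroxidase of the endoplasmic reticulum, had 12.82, 12.74 and 12.36 in KO CD11b cells, against 11.27, 11.17 and 10.45 in KO CD27 cells. It rose 3.21-fold in KO (2.38 to 4.32, adjusted p = 0.00078), a change of 1.68 beside 3.9 in WT (difference adjusted p = 0.0104), with a mean of 10.96 in KO CD27 and 9.06 in WT CD27 cells. Dtx1, the Notch pathway gene deltex, fell at -1.24 in KO and -2.76 in WT (difference adjusted p = 0.0136). Inpp4b, a lipid phosphatase, fell at -1.51 in KO and -2.48 in WT (difference adjusted p = 0.0316). For both, the mean of KO CD11b cells (9.80 and 8.41) lay above that of WT CD11b cells (7.87 and 6.95). The differences of Gpx8, Dtx1 and Inpp4b did not pass without KO replicate 1 (adjusted p of 0.123 to 0.189), KO replicate 2 (0.0659 to 0.105), KO replicate 3 (0.0532 to 0.056) or the block (0.0689 to 0.583).

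A smaller set changed more in KO. Tmem106a, a transmembrane protein, had 8.64, 8.59 and 9.24 in KO CD11b cells, against 7.47, 7.30 and 8.07 in KO CD27 cells, whereas WT cells had 7.03, 6.71 and 7.11 in CD11b, against 7.02, 6.79 and 6.87 in CD27. It rose 2.32-fold in KO (2.05 to 2.63, adjusted p = 2.54e-05) and changed by 0.05 in WT (difference adjusted p = 0.00486; 0.0546 without KO replicate 1 and 0.391 without the block). Srcin1, an inhibitor of Src kinase, had 9.07, 9.0 and 8.18 in KO CD11b cells, against 6.75, 6.89 and 6.31 in KO CD27 cells, and rose 4.27-fold (3.68 to 4.96, adjusted p = 3.58e-06). Its WT change was 0.75 (difference adjusted p = 0.00513; 0.0546 without KO replicate 1 and 0.23 without the block). Lrp1, a large endocytic receptor, rose 5.03-fold in KO (4.03 to 6.29, adjusted p = 2.14e-05), a log2 change of 2.33 beside 0.96 in WT (difference adjusted p = 0.0263; 0.163 without KO replicate 1 and 0.259 without the block). Bmp7, a bone morphogenetic protein, had 5.66, 5.53 and 5.55 in KO CD11b cells, against 8.87, 7.77 and 7.83 in KO CD27 cells. It fell 5.97-fold in KO (4.36 to 8.18, adjusted p = 7.84e-05), beside a WT change of -0.67 that did not pass (difference adjusted p = 0.0268; 0.153, 0.0652 and 0.0736 without KO replicates 1, 2 and 3, and 0.196 without the block). Marcks, a substrate of protein kinase C, rose at 1.57 in KO and 0.45 in WT (difference adjusted p = 0.0126, and 0.0718 to 0.0855 with 1 KO replicate left out; chosen after its values were seen). Cd81, a tetraspanin, fell by 0.96 in KO (adjusted p = 0.000111; 0.158 without the block) at KO means of 8.66 in CD11b and 9.62 in CD27 cells, against 5.92 and 5.78 in WT (difference adjusted p = 0.00574; 0.0546 without KO replicate 1 and 0.775 without the block; chosen after its values were seen).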

How the data were processed

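RNA of sorted NK cells was amplified and hybridised to 18 Affymetrix arrays, 3 for each of 3 subsets and 2 genotypes. The deposited values are log2 expression from RMA, and the submitters' processing notes name RMA and Partek without versions. Their genome build is not given in the sources used here. A range of 3.91 to 14.96 fits a log2 scale. The values were used as deposited, with no filter. RMA brings the arrays to a common distribution, so a shift of most genes at once would not be seen. Precision is limited by how few arrays there are. Of 35399 probe sets, 21789 have 1 gene symbol, 1621 several and 11989 are not listed; only the first kind is named. Where 21698 could be checked against RefSeq by gene identifier, all symbols were equal.

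In R 4.3.3, limma 3.58.1 fitted 1 term for each genotype and replicate number and the DP and CD11b changes of each genotype to all 18 arrays (8 residual and 2.43 prior degrees of freedom), moderated by eBayes. Contrasts were the KO change, the WT change and their difference. P-values are two-sided. The smallest p of a permutation test with 3 arrays a group is 0.1. The block was used because the comparison pairs arrays by number. Deviations from group means of same-numbered KO CD11b and CD27 arrays correlated at 0.213 to 0.465, against -0.375 to 0.238 (median -0.299) for other numbers. These ranges overlapped: KO CD11b replicate 2 had 0.238 with KO CD27 replicate 1 and 0.213 with KO CD27 replicate 2. In WT the same-numbered pairs gave 0.218 to 0.324, against -0.213 to -0.0672 for other numbers. Deviations in a group of 3 cancel out, so values for same and other numbers are not independent and check the pairing only weakly.

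Each of 413 measured genes, of 444 in 23 lists, was represented by its probe set with the highest mean; lists were counted, not tested. The rule for named genes took 16 genes of the NK lineage (Tbx21, Eomes, Zeb2, Prdm1, Klrg1, S1pr5, Cx3cr1, Il7r, Gzmb, Ncr1, the sorting markers Cd27 and Itgam, the Runx genes Runx3, Runx1 and Cbfb, and Tcf7, with no probe set of its own symbol), the 15 largest rises and falls that pass, run one way in all pairs and do not overlap, up to 4 passing members of each list by size (2 with the smallest p where none passes), the 8 smallest p-values of the difference, the 6 largest rises and falls shared with WT, and Cd74, Lyz2, Xist and Eif2s3y; predicted and histone genes were passed over. Every other gene was chosen after its values were seen. Members of the lists and the comparison were chosen with earlier results of these data known. Alternatives were no block, a random block, cyclic loess, dim probe sets left out, a robust prior that follows intensity (statmod 1.5.0), fewer arrays in the fit, array weights, a 1.5-fold minimum, 1 probe set per gene, each replicate left out, and, chosen after seeing the data, the pair of KO replicate 2 alone and the count passing in both genotypes.

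On simulated data with genes changed in KO only, over 35399 probe sets, the KO comparison recovered 76% of genes changed 2-fold and 49% of those changed 1.5-fold with 3 other calls; the difference recovered 57% and 21% with 8 other calls. Simulated errors were independent between probe sets. In the real arrays KO pair changes varied more than those of WT, and 1 KO CD11b array carried genes of other cells. The recovered shares and other calls therefore need not hold for them.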

Additional observations from a re-analysis of the deposited data

Results flagged for a closer look

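Genes named in the results whose KO change differed from their WT change (limma, adjusted p under 0.05) are given here with that difference, KO change minus WT change on the log2 scale. The difference was below 0 for genes with a smaller rise or a larger fall in KO. It was -3.09 for Nuak1 (adjusted p = 4.49e-05), -1.96 for Gzmb (0.00692), -1.91 for Bmp7 (0.0268), -1.70 for Scel (0.00146), -1.60 for Avil (0.00124), -1.49 for Cbr2 (0.034) and -0.98 for Il18r1 (0.0217). Bmp7 and Il18r1 are those with the larger fall in KO. Cbr2, a carbonyl reductase, had 7.24, 6.69 and 7.52 in KO CD11b cells, against 5.03, 4.90 and 5.07 in KO CD27 cells, and rose in both genotypes.

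The difference was above 0 for genes with a smaller fall or a larger rise in KO. It was 2.20 for Dscam (adjusted p = 0.00133), 1.79 for Mef2c (0.000209), 1.46 for Zc3h12d (0.00133), 1.37 for Lrp1 (0.0263), 1.35 for Srcin1 (0.00513), 1.16 for Tmem106a (0.00486) and 0.89 for Ubash3a (0.00814). Zc3h12d, a regulator of mRNA decay, had means of 8.01 in KO CD11b and 8.78 in KO CD27 cells, against 6.87 in WT CD11b and 9.09 in WT CD27 cells. Ubash3a, a regulator of T cell receptor signalling, had means of 8.55 in KO CD11b and 9.29 in KO CD27 cells, against 7.72 in WT CD11b and 9.34 in WT CD27 cells. Of Gzmb, Bmp7, Cbr2, Il18r1, Lrp1 and Ubash3a none passed without KO replicate 1 (adjusted p of 0.0832 to 0.171), and only Lrp1 passed without KO replicate 3 (0.0442; the others 0.056 to 0.113). Of the other 8 genes, without the block only Nuak1, Dscam and Avil passed (adjusted p of 1.55e-05, 0.002 and 0.0315), and in the fit of 12 arrays only Mef2c and Nuak1 passed (0.0184 each).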

How the results depend on the processing

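Counts of passing probe sets are given in the order KO, WT, difference between genotypes, and passing in both in 1 direction; the main values were 2185, 3865, 117 and 1377. Without the replicate block they were 734, 1771, 13 and 518, and with a random block (correlation 0.206) the difference had 42. In the fit of 9 arrays of 1 genotype (12 for the difference) KO had 1264, the difference 4 and both 792. In the fit of 6 arrays, with the same few residual degrees of freedom in each genotype, KO had 63, WT 1578 and both 43. The median SD of the pair changes was 0.158 in KO and 0.128 in WT, and the main fit shares 1 spread between them. Array weights, whose estimation stopped before it converged, gave WT 6177 and the difference 342. At least 1.5-fold, KO had 848, WT 1341 and both 547. With 1 probe set per gene the difference had 195. Leaving out 1 replicate gave 647 to 1962 in KO, 1809 to 3734 in WT, 7 to 81 for the difference and 537 to 1045 for both. The lowest KO count was without KO replicate 1 and the highest without WT replicate 3. The pair of KO replicate 2 alone gave 191 in KO, 0 for the difference and 91 for both; with 1 KO pair, its spread is assumed to be that of the WT arrays. The other counts were within 1.5 times the main ones. The excess of higher over lower calls in KO, 1292 to 893, turned to 1091 and 1186 with cyclic loess and to 744 and 844 without KO replicate 2, and that of the difference, 71 to 46, to 5 and 8 without the block. No named gene that passed changed its direction. Of the 78 named genes that passed, 51 passed without the block, 76 with cyclic loess and 53, 62 and 63 without KO replicates 1, 2 and 3. The causes of these shifts were not tested.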
